A study of Mus musculus with 9 samples.

Results

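The adventitia is the outer layer of the artery wall, and its fibroblasts make the collagenous matrix that surrounds the smooth muscle. In mice, a fibroblast state found in the adventitia and in the stroma of many organs carries Pi16, Dpp4, Ly6a (which encodes Sca-1) and Cd34, and is held to be a reservoir from which other fibroblasts arise. The genes followed here were given by name as Pi16, Ly6a, Cd34, Dpt, Clec3b, Scara5, Smoc2, Dpp4, Gsn and Pi15. All 10 were found by Entrez Gene ID among the 18830 genes of the files, and all 10 passed the filter on low counts. Several of them are not restricted to fibroblasts. Ly6a and Cd34 are also carried by endothelial cells, Dpp4 by T cells, and Gsn by smooth muscle and many other cells.

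By the labels' tissue and source fields, RNA came from the suprarenal abdominal aorta of ApoE knockout mice, whose lack of apolipoprotein E makes them prone to atherosclerosis, and all groups share that genotype. The sample titles of all 9 libraries instead begin with the word Muscle, with no account of the difference. The 3 groups of 3 libraries were mice given angiotensin II (Ang II), a vasoconstrictor peptide that induces abdominal aortic aneurysm, by osmotic pump at 1000 ng/kg/min for 28 days, the same for 14 days, and a sham control that the design text describes as saline. No source used here gives the age, the sex, or the day on which sham aortas were taken, nor which of these aortas had an aneurysm. The labels do not say that the 3 libraries of a group are separate animals, so p-values measure the spread between libraries, which may be partly technical.

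Total expected counts ran from 9609690 to 14923936 per library. Values are normalised read counts (CPM), scaled for the depth of each library. The smooth muscle genes Acta2 and Myh11 were read in every library, at 957 to 13380 and 304 to 5692 CPM. Apoe, the targeted gene, was read in all 9 libraries as well, at 22.5 to 648 CPM, and the counts do not show which part of the gene the reads cover. Libraries within a group differed in markers of other cells. The summed level of 8 nerve genes was 2601 CPM in 28-day replicate 2, 2351 CPM in 14-day replicate 1 and 5492 CPM in sham replicate 2, and 103 to 1187 CPM in the other 6 libraries. The sum of 6 skeletal muscle genes was 13330 and 4438 CPM in 28-day replicates 1 and 2, and 3.86 to 91.8 CPM elsewhere. Dbh, of noradrenergic nerve, was 833, 720 and 1755 CPM in the 3 nerve-rich libraries, and Myh4, of fast skeletal muscle, was 669 and 333 CPM in 28-day replicates 1 and 2. The sum of 10 leukocyte genes was 12890 CPM in 14-day replicate 2, with Lyz2 at 7942 CPM and C1qa at 2200 CPM. Ptprc, of leukocytes in general, was 48.1 to 247 CPM at 28 days, 54.5 to 369 CPM at 14 days and 12.8 to 23.4 CPM in sham. Its highest value was in 14-day replicate 3, and 14-day replicate 2 had 191 CPM. Cd79a of B cells was 344 CPM in 28-day replicate 2 and 509 CPM in 14-day replicate 3, against 1.0 to 43.4 CPM in the other 7. The sum of 6 mesothelial genes did not exceed 5.47 CPM in any library, and Msln was between 0 and 0.561 CPM.

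Levels per kilobase of annotated exon put the members in order. In sham aortas, Gsn stood at 610 ± 112 CPM per kb (SD, n = 3 here and throughout), followed by Ly6a at 177 ± 53.1, Clec3b at 98.1 ± 39.5, Dpt at 92.2 ± 36.1, Pi16 at 46.4 ± 27.8, Cd34 at 20.2 ± 8.40, Pi15 at 14.2 ± 5.06, Smoc2 at 13.6 ± 7.26, Scara5 at 12.8 ± 4.75 and Dpp4 at 1.29 ± 0.827 CPM per kb. The libraries of neighbours in this order overlapped, except those of Gsn and Ly6a and those of Scara5 and Dpp4. In 28-day aortas Pi15 stood at the end of the order beside Dpp4, at 3.09 ± 0.929 and 3.09 ± 1.76 CPM per kb, and Dpt stood above Clec3b, at 223 ± 111 and 114 ± 47.9 CPM per kb. Over the 9 libraries, Gsn had a higher mean per kb than 99.7% of the tested genes, and Dpp4 than 31.4%.

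**Figure D1:**
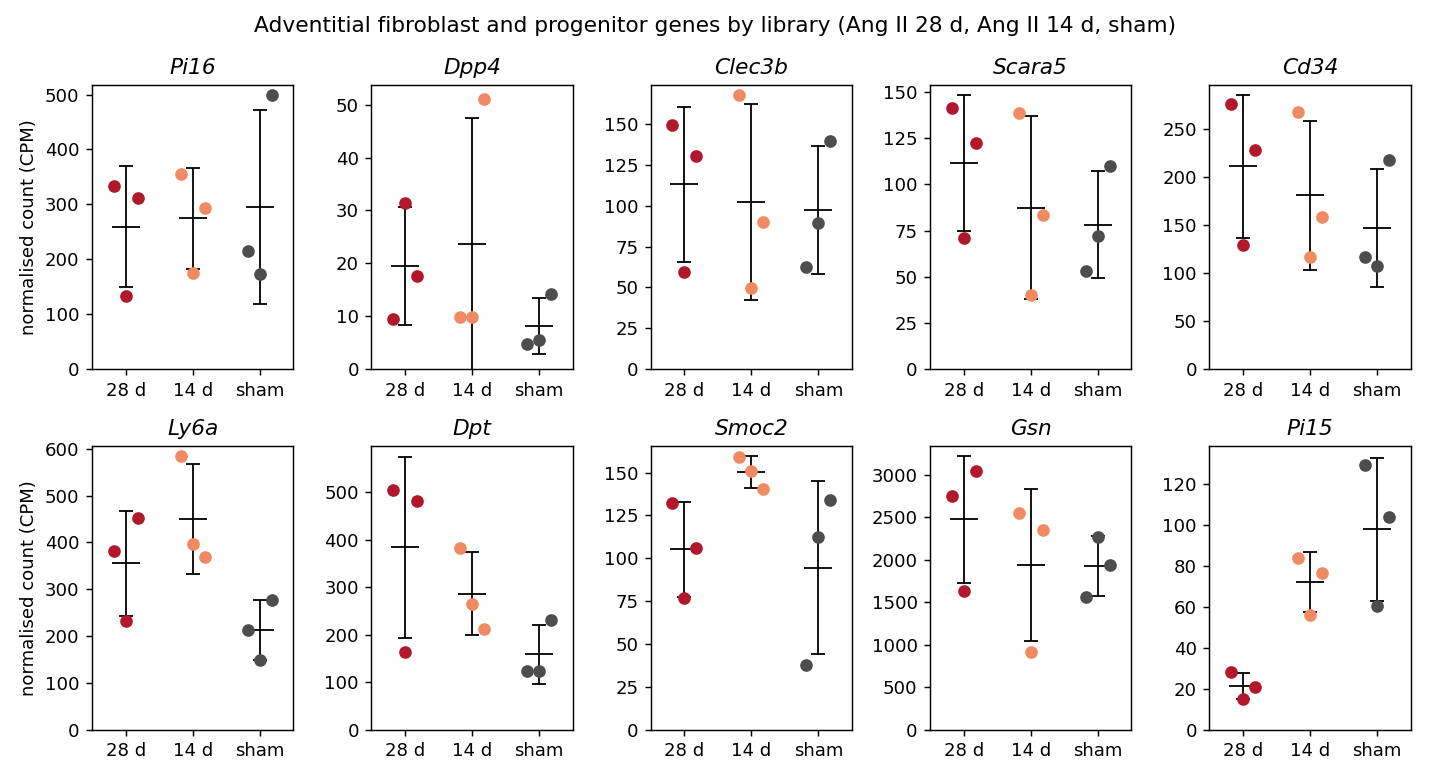
Normalised counts (CPM, vertical axes from 0) of the 10 genes in the 9 libraries, with Ang II 28 days, Ang II 14 days and sham from left to right in each panel. Points are libraries in the order of their replicate numbers, and bars are the mean and SD of 3 libraries; Pi15 lies between 15.2 and 28.0 CPM at 28 days, below all 3 sham libraries, and Ly6a lies above all sham libraries at 14 days.

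No member passed the threshold in any comparison by edgeR's quasi-likelihood test, and neither did any other of the 14741 genes tested (0% called in each comparison). At an unadjusted p under 0.05 that test gave 2042 genes for 28 days against sham, 3460 for 14 days against sham and 903 for 28 against 14 days. DESeq2, run on the same counts, called 970, 1970 and 118 genes. Among the members it called Pi15 lower at 28 days, against sham and against 14 days, and Ly6a higher at 14 days against sham. With both Ang II times pooled against sham, DESeq2 called 1797 genes, and Pi15 (lower, as were 4.32% of genes) and Ly6a (higher, as were 7.87%) were again the members called. The calls of Pi15 were made whichever library was left out, while those of Ly6a were lost without some libraries. In that pooled comparison no member's 6 Ang II libraries all lay above sham, where 8.57% of genes did, or all below it, where 3.97% did. The unadjusted p was under 0.05 for Ly6a and Dpt on the higher side, where 11.4% of genes were so, and for Pi15 on the lower, where 10.1% were.

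Pi15, peptidase inhibitor 15, encodes a secreted protein of the CRISP family (Entrez 94227, ENSMUSG00000067780, GRCm38.p6 chromosome 1, 17601901 to 17630939, plus strand). It had 28.0, 15.2 and 20.9 CPM in 28-day replicates 1 to 3, 84.1, 56.0 and 76.5 CPM in 14-day replicates 1 to 3, and 130, 60.4 and 104 CPM in sham replicates 1 to 3. Every 28-day library lay below every library of the other groups, while the 14-day and sham libraries overlapped. The mean was 21.4 ± 6.43 CPM at 28 days and 98.0 ± 35.0 CPM in sham, a log2 fold change of -2.20 ± 0.34 (SE), or 4.59-fold lower (edgeR adjusted p = 0.203, DESeq2 adjusted p = 2.99e-07). Against the 72.2 ± 14.5 CPM of 14-day aortas, the 28-day level was 3.38-fold lower (log2 -1.76 ± 0.34, edgeR adjusted p = 0.77, DESeq2 adjusted p = 0.000262). By its p, Pi15 ranked 11 among the 14741 genes in the first of these comparisons and 6 in the other. At 14 days against sham the log2 fold change was -0.44, with a 95% interval of -1.20 to 0.32. Of the 10 members, Pi15 was the 1 whose 28-day libraries all lay below sham, where 9.46% of all genes did, and DESeq2 called 2.69% of all genes lower. No member had all 28-day libraries above sham, where 12.2% of genes did, and DESeq2 called none higher, where it called 3.89% of genes.

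Contractile smooth muscle genes were read beside Pi15. Acta2, smooth muscle actin, had 2814, 1125 and 957 CPM in 28-day replicates 1 to 3 and 13380, 4653 and 10310 CPM in sham replicates 1 to 3. All 10 smooth muscle markers lay below every sham library at 28 days, where 9.46% of genes did. DESeq2 called 9 of them lower, where it called 2.69% of genes. In 14-day replicate 2 the smooth muscle genes were also low, with Acta2 at 1992 CPM and Myh11 at 304 CPM, its lowest of all 9 libraries, while Pi15 stood at 56.0 CPM, above every 28-day library. The summed level of the 10 was 2171 to 6624 CPM at 28 days, 3776 to 17350 CPM at 14 days and 10180 to 31120 CPM in sham. Per 1000 counts of Acta2 there were 9.96, 13.5 and 21.8 counts of Pi15 in the 28-day libraries, 10.1, 28.1 and 12.7 in the 14-day libraries, and 9.69, 13.0 and 10.1 in sham. The groups overlapped in this ratio, and 0.0915% of genes lay lower in it at 28 days without overlap. Per 1000 counts of Myh11 they overlapped as well, at 26.0 to 63.6 in the 28-day libraries, 31.4, 184 and 42.6 in 14-day replicates 1 to 3, and 22.8 to 33.4 in sham. Relative to Pdgfra, a receptor carried by fibroblasts in general, Pi15 was lower in every 28-day library, at 0.312 to 0.501 counts per count of Pdgfra, than in any 14-day library, at 0.678 to 1.64, or sham library, at 1.67 to 4.49, and 16.5% of genes lay lower in that ratio at 28 days than in sham. The part of smooth muscle in the Pi15 level was not tested, and in whole tissue fewer cells of a type and less RNA per cell cannot be told apart.

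Ly6a encodes Sca-1, a membrane-anchored surface protein of progenitor fibroblasts, endothelium and activated lymphocytes (Entrez 110454, ENSMUSG00000075602, chromosome 15, 74994877 to 74998031, minus strand). It had 382, 231 and 451 CPM in 28-day replicates 1 to 3, 585, 397 and 368 CPM in 14-day replicates 1 to 3, and 214, 149 and 277 CPM in sham replicates 1 to 3. The 14-day libraries lay above every sham library, and 28-day replicate 2 lay among the sham values. The mean was 450 ± 118 CPM at 14 days and 213 ± 64.0 CPM in sham, 2.11-fold higher (log2 1.08 ± 0.34, edgeR adjusted p = 0.135, DESeq2 adjusted p = 0.0171). The DESeq2 call was lost without 14-day replicate 1, 14-day replicate 2, sham replicate 1 or sham replicate 2 (DESeq2 adjusted p = 0.078, 0.0543, 0.0718 and 0.0803). At 28 days the log2 fold change against sham was 0.74, with an interval of -0.047 to 1.52 (edgeR adjusted p = 0.398). The gene belongs to a family of close paralogs, and its expected count was not a whole number in 1 of the 9 libraries, so a small share of its reads may belong to relatives.

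Ly6a is itself an interferon-inducible gene, and the interferon-response genes were read beside it. Irf7, a transcription factor of that response, had 41.8, 50.2 and 126 CPM in 28-day replicates 1 to 3, 142, 83.5 and 138 CPM in 14-day replicates 1 to 3, and 16.2, 27.0 and 22.3 CPM in sham. All 8 interferon genes had positive log2 fold changes at 14 days, with a median of 1.20, and DESeq2 called 3 of them, where the median over all genes was -0.066 and DESeq2 called 8.6% of genes higher. Relative to the endothelial cadherin gene Cdh5, Ly6a was 2.12 to 2.33 counts per count at 14 days and 1.07 to 1.63 in sham, without overlap, as was the case for 4.97% of genes. Cdh5 itself averaged 279 ± 93.2 CPM at 28 days, 201 ± 44.5 CPM at 14 days and 154 ± 15.3 CPM in sham. Relative to Pecam1, another endothelial gene, Ly6a was 0.815 to 1.99 at 14 days and 0.562 to 0.764 in sham, also without overlap, where 6.21% of genes were higher in that way. Relative to Pdgfra, Ly6a was 4.80 to 10.1 at 14 days and 4.11 to 7.40 in sham, and the groups overlapped. The part of the interferon response and of endothelium in the Ly6a level was not tested.

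Dpt, dermatopontin, is a small matrix protein that binds decorin and collagen fibrils (Entrez 56429, ENSMUSG00000026574, chromosome 1, 164796663 to 164824274, plus strand). It had 505, 164 and 482 CPM in 28-day replicates 1 to 3, 384, 265 and 212 CPM in 14-day replicates 1 to 3, and 123, 123 and 231 CPM in sham replicates 1 to 3. Both Ang II groups had 1 library below sham replicate 3. The 28-day mean was 384 ± 191 CPM, against 159 ± 62.3 CPM in sham, a log2 fold change of 1.27 ± 0.48 that did not pass (edgeR adjusted p = 0.287, DESeq2 adjusted p = 0.0905). Without 28-day replicate 2 or sham replicate 3, DESeq2 called it higher (DESeq2 adjusted p = 0.00692 and 0.0464). Dpt and Pi15 were the members under an unadjusted p of 0.05 in that comparison, where 7.96% of genes were so on the higher side and 5.89% on the lower. Per count of Pdgfra, Dpt was 4.38 to 9.02 at 28 days and 3.40 to 4.26 in sham, without overlap, where 3.06% of genes were higher in that ratio. At 14 days the log2 fold change of Dpt was 0.85 ± 0.47 (edgeR adjusted p = 0.314).

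Pi16, peptidase inhibitor 16, another secreted CRISP family protein, marks the reservoir fibroblasts (Entrez 74116, ENSMUSG00000024011, chromosome 17, 29318796 to 29328903, plus strand). It had 333, 133 and 312 CPM in 28-day replicates 1 to 3, 355, 174 and 293 CPM in 14-day replicates 1 to 3, and 215, 173 and 499 CPM in sham replicates 1 to 3. The highest library was a sham one and the lowest a 28-day one, and the groups overlapped throughout. The log2 fold change was -0.19 (95% interval -1.36 to 0.98) at 28 days and -0.11 (-1.28 to 1.07) at 14 days against sham. These intervals do not exclude a difference of about 2-fold in either direction.

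The ratio of Dpt to Pi16 within a library does not depend on how libraries are scaled. It was 1.52, 1.24 and 1.55 in 28-day replicates 1 to 3, 1.08, 1.52 and 0.721 in 14-day replicates 1 to 3, and 0.571, 0.711 and 0.463 in sham replicates 1 to 3. All 6 Ang II libraries lay above all 3 sham libraries, by a narrow margin between 14-day replicate 3 and sham replicate 2. Taking Pi16 as the denominator, 2.99% of genes were higher in this way. The ratio was picked after its values were seen. Of the 45 pairs that the 10 members form, 7 had ratios that separated all Ang II libraries from sham, where 14.9% of all pairs of genes did, so the share among the members was near the background. At 28 days 16 of the 45 separated from sham, against 25.1% of all pairs, and these 16 included all 9 pairs with Pi15. At 14 days 11 did, against 27.5%.

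The promoters of this pair are shown because their genes parted in that ratio. They are RefSeq windows on GRCm38.p6 from 250 bases before to 50 after an annotated start, Pi16 at chr17:29318632-29318931 and Dpt at chr1:164796413-164796712, both on the plus strand and printed 5′ to 3′. Capitals mark the E-box CAGCTG and the TATA motif TATAAA.
Pi16: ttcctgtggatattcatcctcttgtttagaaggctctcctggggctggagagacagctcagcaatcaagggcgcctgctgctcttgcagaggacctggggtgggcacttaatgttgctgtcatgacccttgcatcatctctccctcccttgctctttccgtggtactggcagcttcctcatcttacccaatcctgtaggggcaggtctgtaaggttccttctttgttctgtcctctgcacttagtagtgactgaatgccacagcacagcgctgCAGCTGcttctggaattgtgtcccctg
Dpt: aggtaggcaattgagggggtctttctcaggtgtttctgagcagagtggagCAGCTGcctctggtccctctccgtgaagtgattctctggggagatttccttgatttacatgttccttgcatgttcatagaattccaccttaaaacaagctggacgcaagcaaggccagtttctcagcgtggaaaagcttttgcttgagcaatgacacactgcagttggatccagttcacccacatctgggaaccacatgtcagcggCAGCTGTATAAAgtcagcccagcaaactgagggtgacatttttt
The Pi16 window held the E-box at position 24, counted from the annotated start of the window as 1. The Dpt window held the E-box at -200 and at 7, followed directly by TATAAA at 13. For Dpt that start is the gene start given above, 164796663, while for Pi16 it lies downstream of the gene start given above, 29318796. Among 32851 promoter windows of this length, 16.3% held CAGCTG, which reads the same on both strands, and 13.6% held TATAAA on either strand. The STAT motif TTCNNNGAA was at -128 in the Dpt window and in 8.3% of windows. The AP-1 motif TGANTCA and a form of the NF-kB motif were searched on both strands and matched neither window, where 7.81% and 0.411% of windows held them. RefSeq windows were matched for 5 of the 10 members, Pi16, Dpt, Cd34, Dpp4 and Gsn.

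Clec3b, Scara5 and Cd34 varied more between libraries than between groups. Clec3b encodes tetranectin, a plasminogen-binding lectin (Entrez 21922, chromosome 9, 123150946 to 123157432), and had 59.6 to 150 CPM at 28 days, 49.7 to 168 CPM at 14 days and 62.3 to 140 CPM in sham. Scara5, a scavenger receptor that takes up ferritin (Entrez 71145, chromosome 14, 65666403 to 65764826), had 70.8 to 142 CPM at 28 days, 40.2 to 139 CPM at 14 days and 53.1 to 110 CPM in sham. Cd34, a sialomucin of progenitor cells and endothelium (Entrez 12490, chromosome 1, 194938821 to 194961292), had 129 to 275 CPM at 28 days, 116 to 267 CPM at 14 days and 107 to 218 CPM in sham. For all 3 genes the groups overlapped. Their log2 fold changes at 28 days were 0.22 ± 0.52, 0.51 ± 0.48 and 0.52 ± 0.43 (edgeR adjusted p = 0.937, 0.759 and 0.715).

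Clec3b, Scara5 and Cd34 each had their 2 highest values in 28-day replicate 1 and 14-day replicate 1. Cd34 was lowest in sham replicates 2 and 1. In 14-day replicate 2, the library with the highest leukocyte sum, Clec3b, Scara5 and Gsn had their lowest values of all 9. Col1a1, a fibrillar collagen chain, had its highest value of 6939 CPM in that library, beside 2335 and 1300 CPM in 14-day replicates 1 and 3. Pdgfra stood at 82.7 CPM there, also its highest. Per count of Pdgfra, Clec3b was 0.601 and Scara5 0.486 in 14-day replicate 2, and 1.59 to 2.91 and 1.79 to 2.53 in the other 8 libraries. The part of leukocyte RNA in these levels was not tested.

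**Figure D2:**
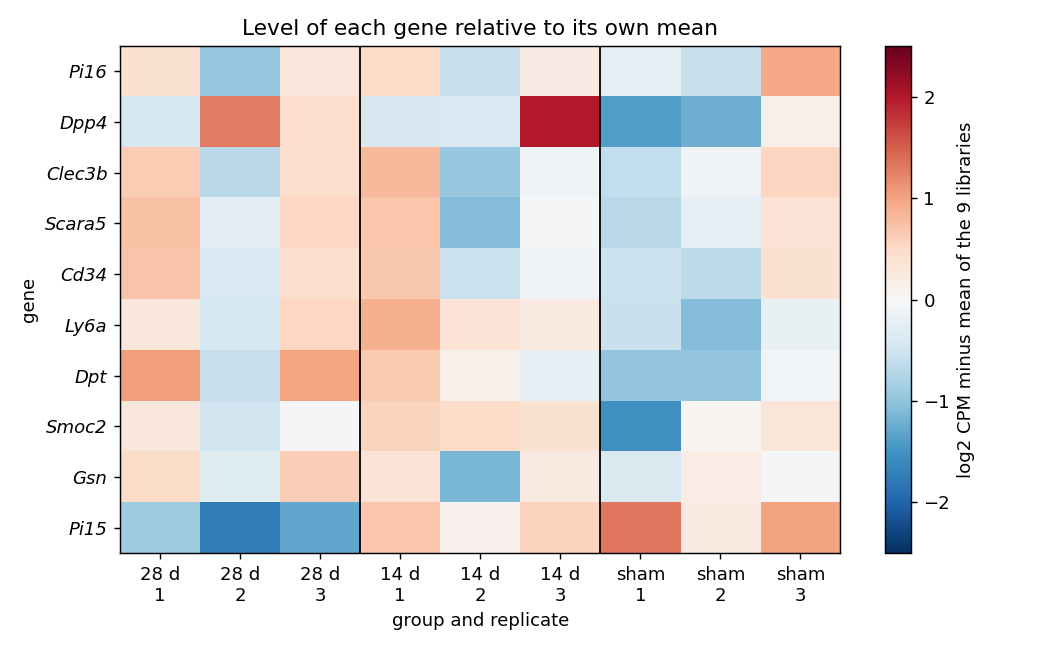
Log2 CPM of each of the 10 genes minus its own mean over the 9 libraries (colour, from -2.5 in blue to 2.5 in red), with genes down the page and libraries across, Ang II 28 days, Ang II 14 days and sham from left to right. Pi16, Clec3b, Scara5 and Cd34 all lie below their own means in 28-day replicate 2 and 14-day replicate 2, Dpp4 is high in 14-day replicate 3 and 28-day replicate 2, and Pi15 is low in the 3 libraries of 28 days.

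Dpp4, the membrane dipeptidase CD26, marks reservoir fibroblasts and is also carried by T cells (Entrez 13482, ENSMUSG00000035000, chromosome 2, 62330073 to 62412315, minus strand). It had 9.41, 31.5 and 17.6 CPM in 28-day replicates 1 to 3, 9.74, 9.87 and 51.2 CPM in 14-day replicates 1 to 3, and 4.80, 5.44 and 14.2 CPM in sham replicates 1 to 3. The high libraries were 14-day replicate 3 and 28-day replicate 2. The log2 fold changes of 1.26 ± 0.80 at 28 days and 1.54 ± 0.80 at 14 days did not pass (edgeR adjusted p = 0.584 and 0.286). Cd3g, a chain of the T cell receptor complex, had its highest values in the same libraries, at 30.6 CPM in 28-day replicate 2 and 93.8 CPM in 14-day replicate 3. It had 4.71 and 13.4 CPM in 28-day replicates 1 and 3, and 6.31 and 17.5 CPM in 14-day replicates 1 and 2. In sham replicates 1 to 3 it had 1.71, 1.07 and 1.25 CPM. Within sham, Dpp4 was highest in replicate 3 and Cd3g in replicate 1. Leaving out 1 library at a time, the 14-day log2 fold change of Dpp4 ran from 0.27 without 14-day replicate 3 to 2.25 without sham replicate 3. The 28-day one ran from 0.73 without 28-day replicate 2 to 1.98 without sham replicate 3. The part of T cells in its level was not tested.

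Smoc2 encodes a matricellular calcium-binding protein (Entrez 64074, chromosome 17, 14279490 to 14404790). It had 132, 76.9 and 106 CPM in 28-day replicates 1 to 3, 159, 151 and 140 CPM in 14-day replicates 1 to 3, and 37.6, 112 and 134 CPM in sham replicates 1 to 3. The 14-day libraries lay above every 28-day and every sham library. The log2 fold change was 0.67 ± 0.43 at 14 days against sham (edgeR adjusted p = 0.379) and -0.51 ± 0.42 at 28 against 14 days (edgeR adjusted p = 0.807). Ly6a and Smoc2 were the 2 members whose 14-day libraries all lay above sham, where 12.6% of genes did, and DESeq2 called 8.6% of genes higher at 14 days. Ly6a was also the 1 member with an unadjusted p under 0.05 there, as 13.1% of genes had on the higher side. None lay below all sham libraries at 14 days, where 13.5% of genes did, and DESeq2 called none lower (4.77% of genes). Pi15 and Smoc2 were the 2 whose 28-day libraries all lay below those of 14 days, where 5.71% of genes did, and DESeq2 called 0.21% of genes lower there. An unadjusted p under 0.05 on the lower side was given to Pi15 alone of the members, and to 2.27% of all genes. No member was above all 14-day libraries at 28 days, where 4.35% of genes were, and DESeq2 called no member higher there (0.59% of genes).

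Gsn, gelsolin, severs and caps actin filaments inside cells and clears actin from plasma (Entrez 227753, ENSMUSG00000026879, chromosome 2, 35256359 to 35307902, plus strand). It had 2755, 1631 and 3051 CPM in 28-day replicates 1 to 3, 2550, 912 and 2354 CPM in 14-day replicates 1 to 3, and 1567, 2270 and 1937 CPM in sham replicates 1 to 3. The groups overlapped, and the log2 fold change was 0.37 ± 0.43 at 28 days and 0.011 ± 0.43 at 14 days (edgeR adjusted p = 0.831 and 0.99). Intracellular and secreted gelsolin arise from different starts of the gene, which counts per gene do not tell apart.

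**Figure D3:**
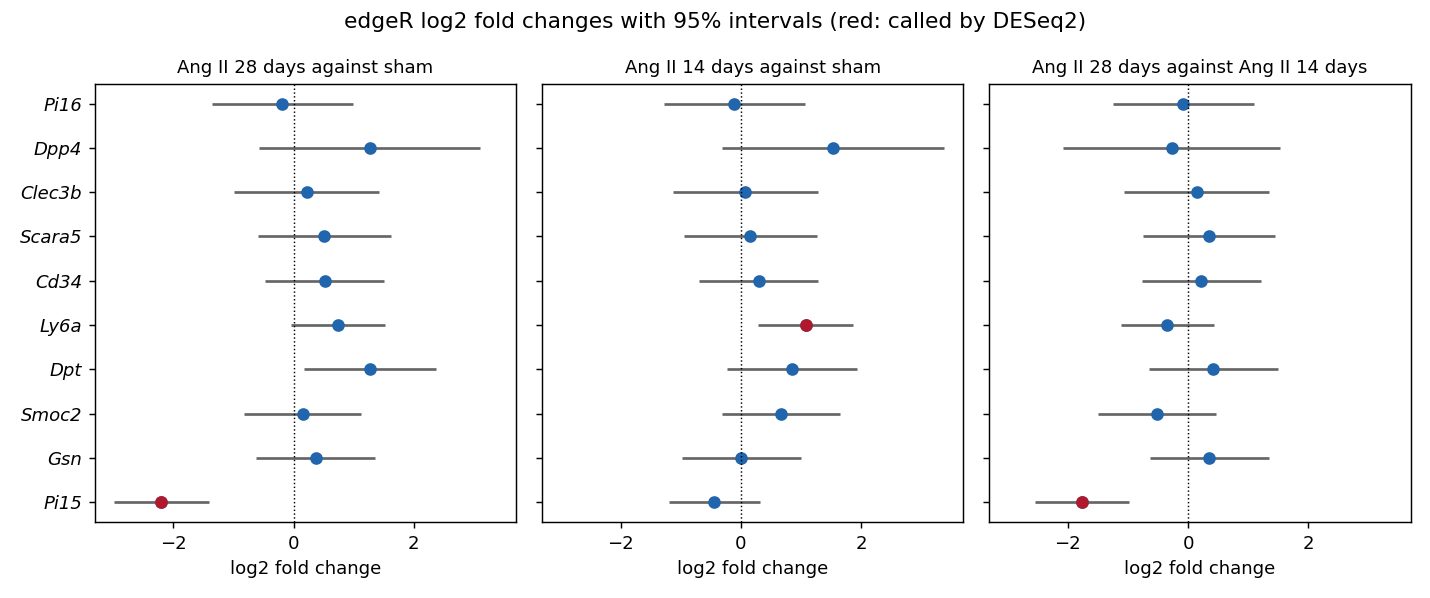
Log2 fold changes (points) with 95% intervals (lines) from edgeR for the 10 genes, in panels for Ang II 28 days against sham, Ang II 14 days against sham and Ang II 28 against 14 days. Red points are members called by DESeq2; the interval of Pi15 at 28 days runs from -2.99 to -1.41, and the intervals of Dpt at 28 days, Ly6a at 14 days and Pi15 at 28 against 14 days also lie on 1 side of 0.

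Across the members, 8 of 10 had positive log2 fold changes at 28 days, with a median of 0.44, and 8 of 10 at 14 days, with a median of 0.23. The median over all tested genes was -0.080 and -0.066 in those comparisons, which share the sham libraries. At 28 against 14 days 5 were positive and 5 negative, with a median of 0.031 beside -0.046 over all genes.

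Other fibroblast genes were read beside the members. Of 24 further adventitial and pan-fibroblast genes, 18 had positive and 6 negative log2 fold changes at 14 days (median 0.61), and DESeq2 called 5 of them higher, the collagen chains Col1a1 and Col3a1, the collagen-binding proteoglycan gene Lum, the surface marker Thy1 and the alarmin Il33, where it called 8.6% of all genes higher. Sema3c, a secreted semaphorin, had 28.8 to 37.5 CPM at 28 days, 12.0 to 51.7 CPM at 14 days and 60.2 to 109 CPM in sham. It lay below every sham library at 28 days, as 9.46% of genes did, and at 14 days, as 13.5% did. With both times pooled DESeq2 called it lower (DESeq2 adjusted p = 0.0182), as it did 4.32% of genes. That pooled fit called Col1a1, Dcn, Lum and Il33 of this list higher, where it called 7.87% of genes. Col1a1 averaged 3525 ± 3002 CPM at 14 days and 911 ± 370 CPM in sham (log2 1.95 ± 0.65, edgeR adjusted p = 0.142). The 14-day values leaned on replicate 2, whose leukocyte sum was the highest of all. Without that library the log2 fold change of Col1a1 was 1.01 ± 0.48, a fold of 2.01, and the median of the list was 0.39. DESeq2 then called 2 of the list, Il33 higher and Sema3c lower, and no longer Col1a1, Col3a1, Lum or Thy1. The log2 fold changes of Col3a1, Lum and Thy1 in that fit were 0.955, 1.20 and 1.235. Over all genes DESeq2 called 879 in that fit, where it called 1970 with all libraries. The part of leukocytes in that library's values was not tested. At 28 days 19 were positive and 5 negative (median 0.38) and DESeq2 called Il33, where it called 3.89% of all genes higher. edgeR called 0 in either comparison, and at an unadjusted p under 0.05 it had 7 higher and 1 lower at 14 days, where 13.1% and 10.4% of all genes were so, and 3 higher and 1 lower at 28 days, where 7.96% and 5.89% were. Pdgfra averaged 53.5 ± 14.9 CPM at 28 days, 62.4 ± 18.5 CPM at 14 days and 40.0 ± 13.4 CPM in sham, Mfap5 of elastic microfibrils 162 ± 70.1, 191 ± 63.3 and 136 ± 68.4 CPM, and Cd248, endosialin, 80.6 ± 31.9, 108 ± 43.0 and 64.1 ± 30.2 CPM, with overlapping groups. Col1a1 was 6.75 to 10.4 counts per count of Pi16 at 28 days and 2.41 to 4.82 in sham, without overlap, where 4.89% of genes were higher in that ratio, and 4.43 to 39.9 at 14 days.

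Genes of activated fibroblasts formed a further list. Of 9 such genes 6 had positive log2 fold changes at 14 days (median 1.73) and 6 at 28 days (median 0.78), and DESeq2 called Runx1, a transcription factor, at both times and Comp, a cartilage matrix protein, at 14 days, where it called 8.6% of all genes higher at 14 days and 3.89% at 28 days. At 28 against 14 days 7 of the 9 were negative, and DESeq2 called Tnc, the matrix glycoprotein tenascin C, lower (log2 -1.26 ± 0.32, edgeR adjusted p = 0.77, DESeq2 adjusted p = 0.0265), where it called 0.21% of all genes. Comp had 74.6, 538 and 46.9 CPM in 14-day replicates 1 to 3, beside 8.44 to 30.3 CPM in sham. Runx1 had 12.5, 67.4 and 20.7 CPM in the same 14-day replicates, 16.1 to 19.4 CPM at 28 days and 2.93 to 5.70 CPM in sham. The part of leukocytes in the levels of Runx1 and the other genes of this list was not tested. Without 14-day replicate 2, the library with the highest leukocyte sum, the median of the list was 0.55. DESeq2 then called Runx1 and Tnc higher, and no longer Comp (DESeq2 adjusted p = 0.156). Over all genes DESeq2 called 879 in that fit, where it called 1970 with all libraries. Cthrc1, a collagen-modulating secreted protein, averaged 7.70 ± 5.49 CPM at 28 days, 8.59 ± 7.25 CPM at 14 days and 2.37 ± 0.512 CPM in sham. Both Ang II groups lay above every sham library, as was so for 8.57% of genes. Cthrc1 passed at neither 28 nor 14 days (edgeR adjusted p = 0.352 and 0.179, DESeq2 adjusted p = 0.193 and 0.0711). Postn, periostin, averaged 611 ± 207, 852 ± 191 and 922 ± 360 CPM, with overlapping groups.

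Fat cells around the vessel and the endothelium carry transcripts that share these libraries. The 8 fat cell genes summed to 3430 to 7803 CPM at 28 days, 1563 to 5135 CPM at 14 days and 6298 to 10970 CPM in sham. Adipoq of fat cells averaged 1011 ± 352, 682 ± 394 and 969 ± 324 CPM, and Ucp1 of brown fat 2352 ± 1095, 1058 ± 602 and 3796 ± 2042 CPM. The 10 endothelial genes summed to 1219 to 2085 CPM at 28 days, 935 to 2024 CPM at 14 days and 933 to 1273 CPM in sham, and Pecam1 averaged 364 ± 109, 371 ± 148 and 335 ± 63.0 CPM. Of the 10, 9 had positive log2 fold changes at 28 days (median 0.53) and 9 at 14 days (median 0.295). At 28 days 5 lay above every sham library, where 12.2% of all genes did. DESeq2 called Cdh5 and Kdr of this list higher at 28 days, where it called 3.89% of all genes, and 0 at 14 days. Cd34 per count of Pecam1 was 0.399 to 0.809 at 28 days, 0.350 to 0.582 at 14 days and 0.305 to 0.601 in sham, and overlapped. The part of fat and endothelium in the members' levels was not tested.

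**Figure D4:**
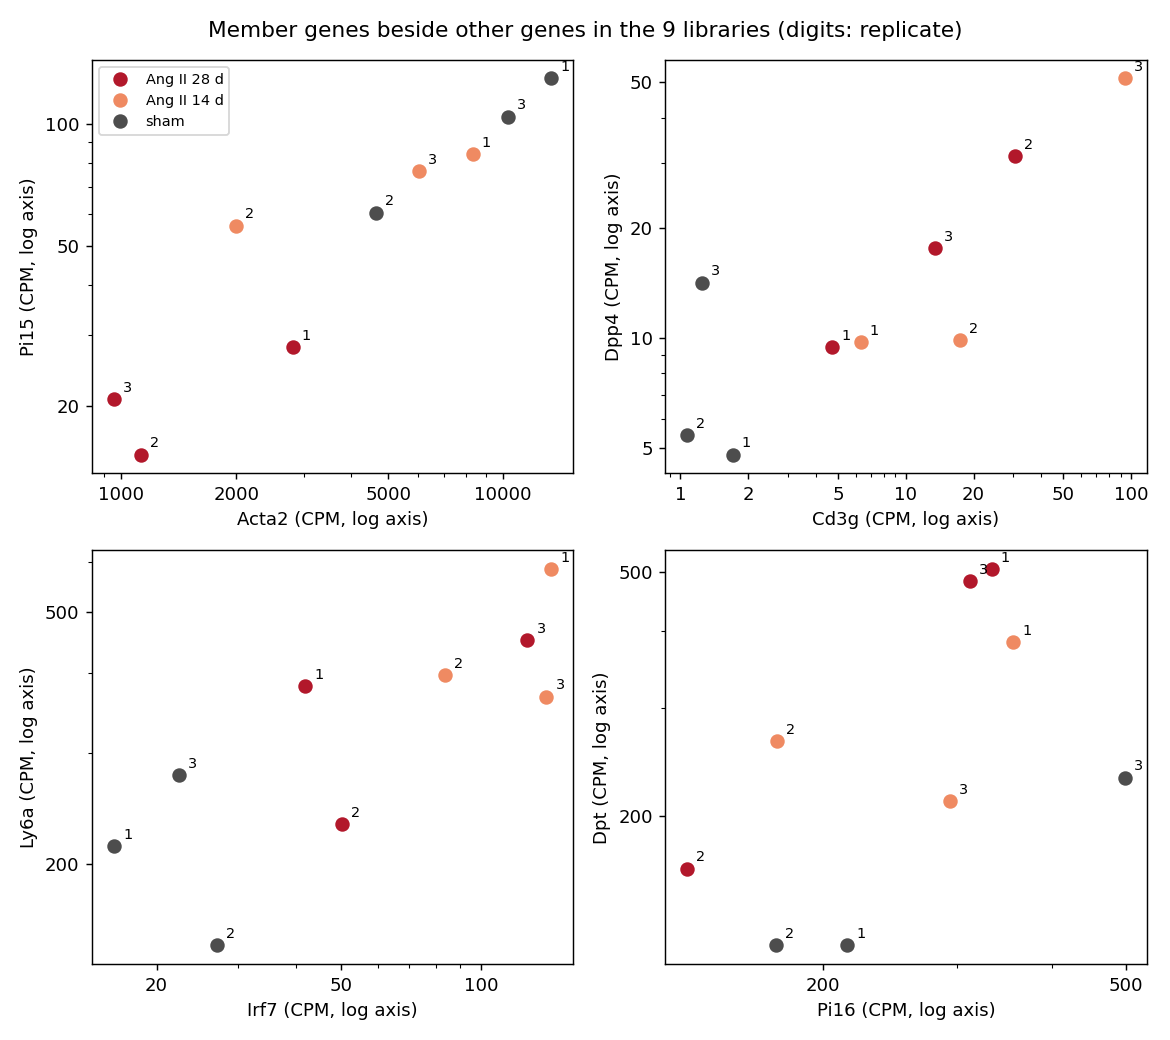
CPM of 4 members (vertical log axes) against CPM of another gene in the same library (horizontal log axes): Pi15 against Acta2, Dpp4 against Cd3g, Ly6a against Irf7, and Dpt against Pi16. Each point is 1 of the 9 libraries, coloured by group and marked with its replicate number; the 28-day libraries have the 3 lowest Pi15 values, 14-day replicate 2 has a lower Acta2 than 28-day replicate 1 but a higher Pi15, and 14-day replicate 3 at the high end of both Dpp4 and Cd3g.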

How the data were processed

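The authors deposited 1 file of estimated counts per gene for each library, headed as read counts per the file headers, with no scaling for depth or gene length; that they are estimates is read from their decimals and from RSEM among the listed tools. The submitters' processing notes list GRCm38.p6 as the build and the tools RSEM 1.3.1, HISAT2 2.2.1 and Bowtie2 2.4.5, without saying what each did. Strandedness is not stated, so reads of overlapping antisense transcripts cannot be told apart. Decimals occurred in 9.77% to 11.0% of genes per library, and all values were rounded. Of 18830 genes, 18775 were matched to a RefSeq symbol and position on GRCm38.p6, and exon lengths for levels per kb are unions of all GENCODE exons.

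filterByExpr of edgeR 4.0.16 left 14741 genes. Libraries were scaled by TMM, and a robust quasi-likelihood model (glmQLFit) took in all 9 libraries and gave each group its own coefficient, with Benjamini-Hochberg adjustment over all genes and a threshold of 0.05. SEs were derived from the log2 fold change and its F statistic, and intervals use the model's t quantile. The biological coefficient of variation was 51.3%, and the smallest exact permutation p for 3 against 3 libraries is 0.1, so no value was tested that way. DESeq2 1.42.0 was the alternative test. The scripts were tested on simulated data for 28 days against sham, with 50 genes changed by each fold tried. Of the 2-fold, 4-fold, 8-fold and 16-fold changes edgeR called 0%, 50%, 84% and 94%, and it called 5 unchanged genes. DESeq2 called 20%, 74%, 92% and 100% of them, and 78 unchanged genes. In that setting edgeR missed changes of 2-fold. The share of unchanged genes among the DESeq2 calls was above the 0.05 that the threshold aims at. The member calls given here rest on DESeq2 alone.

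The members, lists and alternatives were chosen with earlier results of these data known. All 10 members are named whatever their values, as are 18 other genes; further list genes are named because DESeq2 called them or their values stood out, after values were seen. Replicate numbers are not treated as pairs. No FPKM values were used here.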

Additional observations from a re-analysis of the deposited data

How the results depend on the processing

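The calls depended on the test. DESeq2 called 1970 genes for 14 days against sham, 970 for 28 days against sham, 118 for 28 against 14 days and 1797 for both times against sham, where edgeR called 0 in each, and it called 1, 1, 1 and 2 members. Its adjusted p ran from 2.99e-07 to 0.0242 for these member calls. With 1 library left out at a time (chosen after seeing the data), DESeq2 called 0 to 1 members at 14 days, 1 to 2 at 28 days, 1 at 28 against 14 days and 1 to 3 for both times. Over all genes these fits called 857 to 2995 genes at 14 days and 266 to 1469 at 28 days. They called 59 to 214 genes at 28 against 14 days and 812 to 2472 for both times. Dpt was added at 28 days in the fits that called 266 and 402 genes. Ly6a at 14 days was lost in the fits that called 2995, 879, 1726 and 1777 genes. It was kept in fits that called 857 to 1990. Whether member calls followed the number of genes called was not tested. Pi15 was among the members called in every such fit of the last 3 comparisons. For both times, Ly6a was lost without 28-day replicate 1, 28-day replicate 3, sham replicate 1 or sham replicate 2 (adjusted p = 0.0622, 0.0844, 0.116 and 0.128), and Dpt was added without 28-day replicate 2 or sham replicate 3 (adjusted p = 0.0047 and 0.0324). With the replicate block, edgeR called 1 gene for 14 days and 1 for both times against sham, and with only the groups compared 1 gene for 14 days against sham. Leaving out each library in turn gave 0 to 7 genes for 28 days against sham (7 without 28-day replicate 3, 5 without sham replicate 2), 0 to 5 for both times against sham (5 without sham replicate 2) and 0 in the other comparisons, with 0 members in all of these fits. RLE factors, testing genes without any filter, requiring 5 CPM in 3 libraries, leaving out the 3 nerve-rich libraries and leaving out the 2 with the highest Cd79a (chosen after seeing the data) gave 0 genes and 0 members each.

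The log2 fold change of Pi15 at 28 days ran from -2.46 to -1.95 against sham and from -2.0 to -1.56 against 14 days over the libraries left out, and that of Ly6a at 14 days from 0.84 to 1.36. Signs turned for members near 0. Without the 3 nerve-rich libraries, Cd34, Clec3b, Scara5 and Gsn were at -0.27, -0.53, -0.39 and -0.085 at 14 days against sham, Pi16 and Ly6a at 0.40 and 0.052 at 28 against 14 days, and Clec3b at -0.055 for both times. With the replicate block, Clec3b and Gsn were at -0.095 and -0.13 at 14 days, Dpp4 at 0.097 at 28 against 14 days and Clec3b at -0.012 for both times. Without the 2 libraries with the highest Cd79a, Gsn was at -0.15 at 14 days, Pi16 at 0.13 at 28 days and at 0.29 at 28 against 14 days, and Dpp4 at 0.47. The cause was not tested. Over the libraries left out in turn, the ranges that crossed 0 were, at 14 days against sham, -0.38 to 0.55 for Pi16, -0.10 to 0.74 for Cd34, -0.48 to 0.48 for Clec3b, -0.34 to 0.53 for Scara5 and -0.24 to 0.37 for Gsn. At 28 days against sham they were -0.46 to 0.47 for Pi16, -0.035 to 0.62 for Clec3b and -0.23 to 0.54 for Smoc2. At 28 against 14 days they were -0.32 to 0.23 for Pi16, -0.017 to 0.62 for Cd34, -0.18 to 0.70 for Clec3b and -0.80 to 0.99 for Dpp4. For both times against sham they were -0.42 to 0.51 for Pi16 and -0.13 to 0.55 for Clec3b.

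Deviations of same-numbered libraries from their group means correlated between -0.553 and 0.646 over 9 pairs. Those of differently numbered libraries of different groups correlated between -0.734 and 0.716. Libraries also differ in nerve, muscle and leukocyte genes, so this check cannot show whether the numbers pair the samples. A planned limma fit to FPKM was not run.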
